A study of Mus musculus with 12 samples.

Results

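Riociguat stimulates soluble guanylate cyclase, the receptor for nitric oxide that makes cGMP. Its effect on the genes of glucose breakdown and of the hypoxia response was followed in cells that the labels call HSCs, isolated fresh from the livers of wild-type mice; the labels do not spell the name out, and it is taken to mean hepatic stellate cells, pericytes of the liver that store retinoids. The gene set has 33 symbols, chosen by name as glycolytic enzymes, HIF pathway components and HIF targets, and they match 34 of the 53452 genes in the deposited table because Aldoa has another identifier (ENSMUSG00000114515, at chr7:126800790-126809108 on GRCm38). All 34 passed the filter on low counts, among 16036 genes tested.

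There were 4 groups of 3 RNA sequencing libraries each. After isolation the cells were cultured for 12 h, given new medium, and by the labels collected 24 h after that change. DMSO, the solvent control, was present for the last 12 h, and riociguat for the last 6, 12 or 24 h, so the compound went in 18, 12 or 0 h after the new medium. The comparison at 12 h is therefore the only one with DMSO in which the time of addition matches, and the 6 h and 24 h groups have no solvent control of their own duration. The sources used here give neither the dose nor the age of the mice. The labels do not say whether replicates are separate animals or cell preparations, so p-values measure the spread of these samples only, and that spread may be technical. The 3 comparisons with DMSO share the same DMSO libraries.

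Library totals ranged from 12953096 to 27358893 counts, and DMSO replicate 1 differed more from its 2 partners than any other pair of replicates differed (chi-square per degree of freedom 12.3 and 16.03, against 4.08 to 7.93 in the other pairs). All 10 stellate markers of the list used were detected, led by Reln (1367 CPM, which are counts per library size corrected by TMM, in DMSO) and Dcn (667 CPM), while Lrat, which stores retinol as ester in quiescent stellate cells, was at 4.81 CPM. Other liver cell types left their markers as well. In DMSO the summed level was 1268 CPM for 10 hepatocyte markers, 1041 CPM for 10 endothelial markers and 136 CPM for 10 macrophage markers, against 2663 CPM for the stellate list. Lymphocyte markers were near 0, with 9 of 10 under 1 CPM. In bulk RNA, fewer cells of a type and less RNA per cell cannot be told apart.

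Glycolysis converts glucose to pyruvate, and lactate dehydrogenase then makes lactate, which leaves the cell through monocarboxylate carriers. When oxygen is low, the prolyl hydroxylases of the EGLN family stop marking the alpha subunits of the hypoxia-inducible factors (HIF) for degradation, and the factors switch on glucose transporters, most glycolytic enzymes, the kinase that blocks entry of pyruvate into the citric acid cycle, and secreted signals such as VEGF and adrenomedullin. Stellate cells are known to raise glycolysis when they turn into myofibroblasts in culture or injured liver.

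HIF binds a short core, ACGTG or GCGTG, within hypoxia response elements. This core was searched on both strands in the 250 bases before each transcript start that RefSeq gives on GRCm38.p6. Windows were given for 31 of the 33 symbols, and Ndrg1 and Bnip3l are the other two. A core was in 37 of 48 windows of the set (77.1%), in 7875 of 14818 windows of all genes tested here (53.1%) and in 12679 of 32851 windows of all genes (38.6%). The set holds genes picked as HIF targets, a core of this length occurs widely, and a match is a description of the letters, not of binding. The windows below belong to the genes on which the results turn, with each core in capitals on the strand of the gene; a core on the other strand reads CACGT or CACGC, and CACGTG is a core on both strands. The first set holds the pyruvate and lactate genes that fell together at 6 h:
Ldha, chr7:46845554-46845803, plus strand: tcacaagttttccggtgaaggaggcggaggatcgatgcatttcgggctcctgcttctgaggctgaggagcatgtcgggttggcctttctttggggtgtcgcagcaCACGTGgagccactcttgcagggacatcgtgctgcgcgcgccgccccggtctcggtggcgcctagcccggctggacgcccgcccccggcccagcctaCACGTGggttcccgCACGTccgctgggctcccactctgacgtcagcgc
Slc16a3, chr11:120948817-120949066, plus strand: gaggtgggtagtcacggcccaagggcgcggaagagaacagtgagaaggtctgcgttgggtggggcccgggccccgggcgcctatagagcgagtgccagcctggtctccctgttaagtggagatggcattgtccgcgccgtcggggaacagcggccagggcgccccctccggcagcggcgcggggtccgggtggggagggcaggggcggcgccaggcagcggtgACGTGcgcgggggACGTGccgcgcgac
Pdk1, chr2:71872974-71873223, plus strand: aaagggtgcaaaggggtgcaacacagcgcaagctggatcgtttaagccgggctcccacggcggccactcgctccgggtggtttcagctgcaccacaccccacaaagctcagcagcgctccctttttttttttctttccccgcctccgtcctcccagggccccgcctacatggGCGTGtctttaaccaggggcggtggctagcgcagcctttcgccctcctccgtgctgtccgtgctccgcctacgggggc
The second set holds a glucose transporter and a HIF hydroxylase that rose at 6 h:
Slc2a1, chr4:119108495-119108744, plus strand: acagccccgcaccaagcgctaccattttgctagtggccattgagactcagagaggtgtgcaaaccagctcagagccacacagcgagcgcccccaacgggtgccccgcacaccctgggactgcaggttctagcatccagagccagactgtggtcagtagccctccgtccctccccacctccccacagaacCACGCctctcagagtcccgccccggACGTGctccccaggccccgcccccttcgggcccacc
Egln3, chr12:54203875-54204124, minus strand: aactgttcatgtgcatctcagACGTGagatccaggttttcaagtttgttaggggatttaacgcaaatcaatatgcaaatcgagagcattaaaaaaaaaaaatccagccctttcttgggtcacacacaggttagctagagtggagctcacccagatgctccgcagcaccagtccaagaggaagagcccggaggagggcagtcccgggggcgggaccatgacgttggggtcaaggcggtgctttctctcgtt
The third set holds the genes that changed in 1 direction at all 3 exposure times:
Adm, chr7:110627407-110627656, plus strand: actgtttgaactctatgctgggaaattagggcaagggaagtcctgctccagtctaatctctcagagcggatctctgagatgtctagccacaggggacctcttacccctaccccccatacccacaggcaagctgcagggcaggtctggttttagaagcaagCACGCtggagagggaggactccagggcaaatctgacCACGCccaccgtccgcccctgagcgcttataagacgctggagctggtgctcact
Ddit4, chr10:59951771-59952020, minus strand: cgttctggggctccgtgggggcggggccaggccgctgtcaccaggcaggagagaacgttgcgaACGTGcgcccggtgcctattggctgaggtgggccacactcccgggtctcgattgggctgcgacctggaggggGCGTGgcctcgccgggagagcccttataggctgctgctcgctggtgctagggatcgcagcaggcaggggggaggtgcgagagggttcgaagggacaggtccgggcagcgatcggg
Counted by gene, 29 of the 31 with a window (93.5%) had a core in at least 1 window, beside 58.9% of genes tested here. Genes with a core were therefore bound to occur among those that rose, fell or did both, and a core says nothing on direction. The Ldha window printed holds 5 matches, 4 of them in 2 CACGTG palindromes. The bases after its start were not found in an annotated transcript of the gene. A later Ldha start, whose following bases were found in one, has 1 match in its window. Windows without a core are not printed: a later Pdk1 start and the first Vegfa start have 0 matches, as has the Tpi1 window. A later Vegfa start has 2, and the bases after it were not found in an annotated transcript either.

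After 12 h, riociguat changed 5 HIF-related genes, by at most 0.66 on the log2 scale, and none of the glycolysis and lactate genes passed the test. Ddit4, Vegfa and Bnip3l rose, and Adm and Egln1 fell. That is 3 risen and 2 fallen of 34 (8.82% and 5.88%), where 2.18% and 3.48% of all genes tested rose and fell. A gene was called changed where edgeR's quasi-likelihood test gave a Benjamini-Hochberg adjusted p under 0.05 over all 16036 genes; changes are log2 fold changes with their standard error (SE). Each library was also left out in turn, and a call said to be lost without several libraries was lost without each of them alone. Of the 20 glycolysis and lactate identifiers, 0 were called at 12 h by edgeR and 0 by DESeq2, and 4 had an unadjusted p under 0.05. At 6 h more genes moved, 5 up and 7 down, with Ldha, Slc16a3 and Pdk1 down and Slc2a1 up. That is 5 risen and 7 fallen of 34 (14.7% and 20.6%), where 4.48% and 5.24% of all genes tested rose and fell. At 24 h Ldha, Bnip3, Vegfa and Ddit4 rose and Pfkp, Eno1, Egln1, Adm and Ndrg1 fell. That is 4 risen and 5 fallen of 34 (11.8% and 14.7%), where 5.94% and 7.41% of all genes tested rose and fell. Members of the set are expressed more strongly than most genes (median of the mean level 81.4 CPM against 18.8 CPM over all genes tested), and counting error is smaller for them. Their median log2 fold change was -0.04 at 12 h, -0.06 at 6 h and -0.02 at 24 h, beside 0.00 to -0.01 over all genes tested. Among the 20 glycolysis and lactate identifiers the log2 fold change was positive in 3 at 12 h (median -0.06), 7 at 6 h (-0.06) and 7 at 24 h (-0.07). Among the 14 HIF-related genes it was positive in 9 at 12 h (median 0.09), 7 at 6 h (-0.03) and 8 at 24 h (0.05).

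The riociguat groups were also compared with each other. From 6 h to 12 h, 3 members rose (Ldha, Slc16a3 and Pdk1) and 3 fell (Slc2a1, Egln3 and Adm), where 2.57% and 3.52% of all genes tested did. From 12 h to 24 h, Ldha alone rose and none fell, against 1.37% and 1.71% of all genes; 4 members had an unadjusted p under 0.05, and DESeq2 also called 1. From 6 h to 24 h, 5 rose (Ldha, Pdk1, Bnip3, Vegfa and Pfkfb3) and 6 fell (Slc2a1, Pfkp, Egln1, Egln3, Bnip3l and Mxi1), against 7.16% and 8.13% of all genes. Over the 6 comparisons, 19 of the 34 had at least 1 call and 15 had none. Changes were small: log2 fold changes among the calls lay between 0.13 and 0.66 in size.

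**Figure D1:**
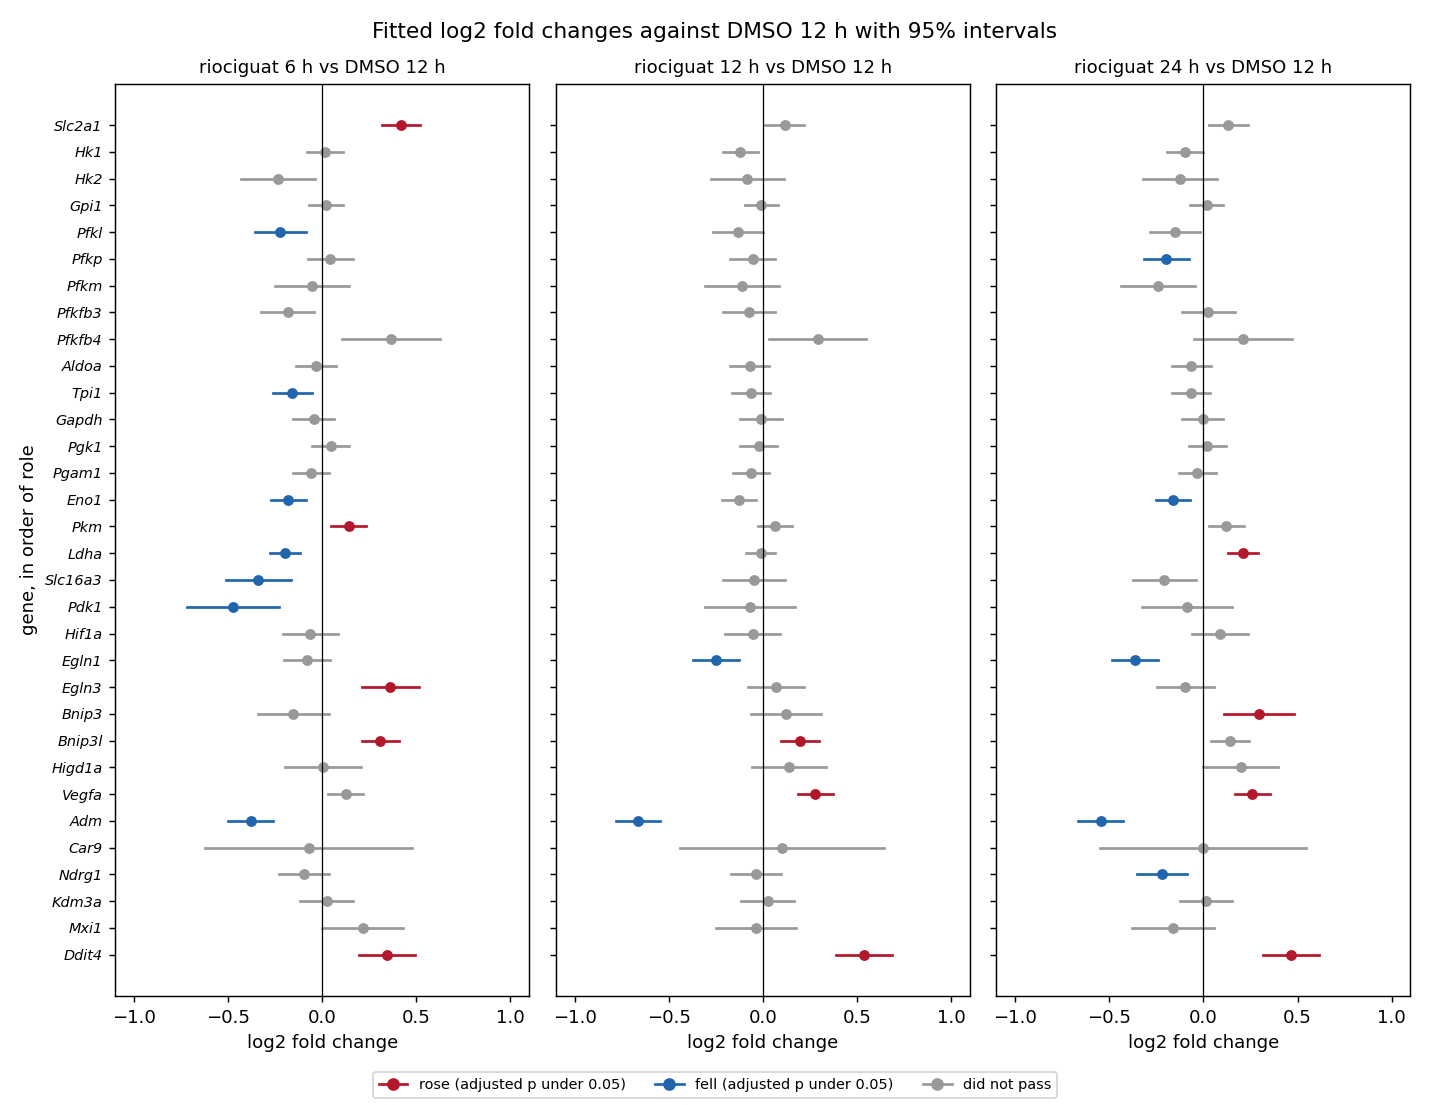
Fitted log2 fold change of 32 genes of the set against DMSO 12 h, with 95% intervals as lines, for riociguat at 6, 12 and 24 h (3 libraries per group); red and blue mark an adjusted p under 0.05. Adm lies to the left and Ddit4 to the right in all 3 panels, and the enzymes from Aldoa to Pkm lie between -0.18 and 0.14; Ankrd37 and the other Aldoa identifier, at about 1 CPM or less, are not drawn.

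Levels between genes are compared per kb of merged exons. Merged exons can be longer than the transcripts expressed, an error that the SD between libraries does not measure. In DMSO the lower pathway was the most abundant, with Gapdh at 567 ± 12.98, Pkm at 520 ± 19.99 and Aldoa at 466 ± 25.7 CPM per kb (SD, n = 3 for these and all other levels). Pgk1 followed at 237 ± 7.92. Eno1 at 215 ± 5.16, Ldha at 207 ± 5.08 and Pgam1 at 196 ± 11.8 were neighbours whose spreads overlapped. The steps that commit glucose to the pathway were lower: Hk1, the hexokinase of most tissues, was at 23.6 ± 0.42 and Hk2, its inducible relative, at 7.95 ± 0.99. Among phosphofructokinase subunits the liver type Pfkl led at 21.2 ± 1.51, above the muscle type Pfkm (7.63 ± 0.79) and the platelet type Pfkp (6.15 ± 0.24). The order of Pfkm and Pfkp rests on the merged exons, 3340 bases for Pfkm and 13401 for Pfkp. Before division by length Pfkp was the higher, at 82.4 CPM against 25.5 CPM. Ldha exceeded Ldhb, the heart-type subunit (7.76 ± 0.64), by far. Of the lactate carriers, Slc16a1 (12.2 ± 0.29) was above Slc16a3 (5.52 ± 0.03). Hif1a (45.0 ± 4.05) and Epas1, which encodes the other main HIF alpha subunit (44.7 ± 1.06), did not differ beyond their spread, nor did Egln1 (17.0 ± 0.28) and Egln2 (18.5 ± 1.25), while Egln3 was lower (10.4 ± 0.39).

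**Figure D2:**
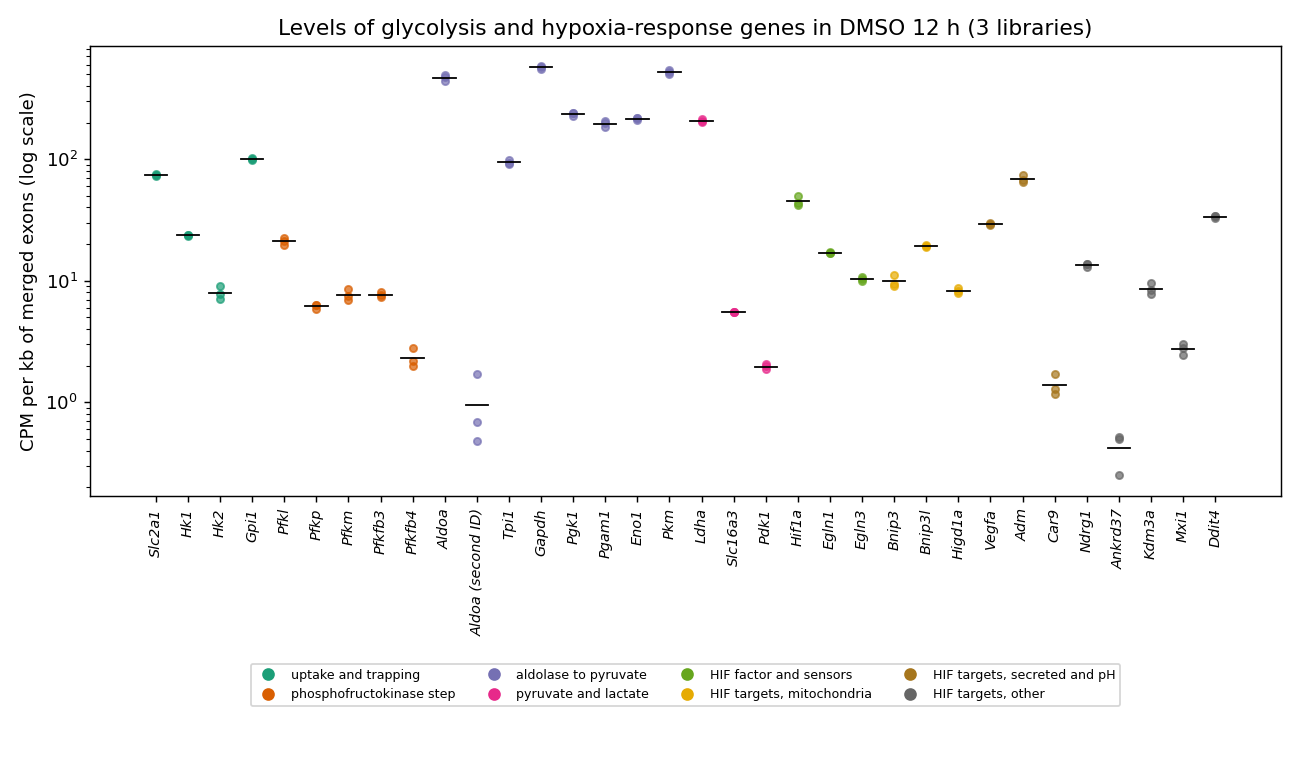
Level of each gene of the set in the 3 DMSO libraries (points) with their mean (line), in CPM per kb of merged exons on a log axis, ordered and coloured by role. The enzymes from Aldoa to Pkm and Ldha stand highest, and Car9, Ankrd37 and the other Aldoa identifier lowest.

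Of the 4 genes of glucose uptake and trapping, 1 responded. Slc2a1, the widespread basal glucose transporter, stood at 258, 266 and 257 CPM in the 3 DMSO libraries, at 367, 324 and 352 after 6 h of riociguat, at 292, 286 and 268 after 12 h and at 285, 293 and 277 after 24 h. All libraries of the 6 h group lay above all others. The rise at 6 h was a log2 fold change of 0.42 (SE 0.05, adjusted p = 2.18e-05), and the levels at 12 h (log2 fold change -0.30, SE 0.05, adjusted p = 0.000742) and 24 h (log2 fold change -0.29, SE 0.05, adjusted p = 0.000507) were below that of 6 h. Against DMSO the later groups did not pass the test, with log2 fold changes of 0.12 at 12 h (95% interval 0.01 to 0.22, adjusted p = 0.226) and 0.13 at 24 h (0.03 to 0.23, adjusted p = 0.0883; DESeq2 called the latter). Summed endothelial markers were also highest at 6 h (1212 to 1281 CPM per library, against 983 to 1090 in DMSO), and their part in the result was not tested. The other three, the hexokinases Hk1 and Hk2 and the glucose phosphate isomerase Gpi1, had no call in any comparison. Hk2 was at 47.5 ± 5.92 CPM in DMSO and 40.2 ± 2.65 CPM at 6 h, with a log2 fold change of -0.24 (SE 0.09, adjusted p = 0.131) that passed only without DMSO replicate 1 or without the count filter. Gpi1 had 95% intervals within 0.11 of 0 on the log2 scale in all 3 comparisons with DMSO.

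The phosphofructokinase step sets the pace of glycolysis, and its 5 genes gave few calls. Pfkp stood at 78.8, 84.1 and 84.4 CPM in the 3 DMSO libraries, at 89.7, 81.4 and 84.00 after 6 h of riociguat, at 79.8, 77.2 and 81.1 after 12 h and at 67.8, 77.01 and 71.2 after 24 h. It was lowest at 24 h, below every DMSO and 6 h library. The fall at 24 h was a log2 fold change of -0.20 (SE 0.06, adjusted p = 0.0287) against DMSO and a log2 fold change of -0.24 (SE 0.06, adjusted p = 0.00771) against 6 h. For Pfkp, the call of 24 h against DMSO was lost without DMSO replicate 2 or 3 or 24 h replicate 1 or 3 (adjusted p up to 0.172), and likewise in a fit of the compared libraries alone. Without 24 h replicate 1, Pfkp no longer passed for 24 h against 6 h (adjusted p up to 0.0575). Pfkl was at 141 ± 10.1 CPM in DMSO and 122 ± 8.61 CPM at 6 h, a fall that passed the test (log2 fold change -0.22, SE 0.06, adjusted p = 0.0348). Leaving out DMSO replicate 2 or 3 or 6 h replicate 2 or 3 ended the Pfkl call of 6 h against DMSO (adjusted p up to 0.176), and likewise in a fit of the compared libraries alone. Pfkfb3 and Pfkfb4 make the allosteric activator of phosphofructokinase. Pfkfb3 rose from 51.2 ± 1.49 CPM at 6 h to 59.1 ± 3.34 CPM at 24 h (log2 fold change 0.21, SE 0.07, adjusted p = 0.0439). For Pfkfb3, the call of 24 h against 6 h was lost without 6 h replicate 1, 2 or 3 or 24 h replicate 1 or 3 (adjusted p up to 0.152). Pfkfb4 was at 11.3 ± 2.10 CPM in DMSO and 14.5 ± 1.22 CPM at 6 h, with a log2 fold change of 0.36 (SE 0.12, adjusted p = 0.0718). It passed the test at each exposure time when DMSO replicate 1, its highest DMSO library at 13.7 CPM, was left out. Pfkm had no call.

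The enzymes from aldolase to pyruvate kinase changed little, with 4 calls in 3 genes (Eno1, Tpi1 and Pkm). Their summed level was 8636 ± 295 CPM in DMSO, 8638 ± 353 at 6 h, 8539 ± 263 at 12 h and 8662 ± 314 at 24 h. Aldoa, Gapdh, Pgk1 and Pgam1 had no call in any comparison. For Gapdh, the 95% interval of the log2 fold change was -0.12 to 0.10 at 12 h and -0.16 to 0.07 at 6 h. The other Aldoa identifier held 1 to 28 counts per library, beside 17843 to 35965 for the main gene, and had no call. These enzymes have many near-identical pseudogenes, between which read assignment is uncertain; the named copies of members in the table held 0 to 9 counts each, summed over all libraries. Eno1, enolase, stood at 1122, 1171 and 1170 CPM in the 3 DMSO libraries, at 1063, 1005 and 988 after 6 h of riociguat, at 1099, 1033 and 1039 after 12 h and at 986, 1047 and 1063 after 24 h. The DMSO libraries were the 3 highest of the 12. The fall was a log2 fold change of -0.18 (SE 0.04, adjusted p = 0.0127) at 6 h and a log2 fold change of -0.16 (SE 0.04, adjusted p = 0.0185) at 24 h. At 12 h the log2 fold change was -0.13 (SE 0.04, adjusted p = 0.113), and the 12 h and 24 h libraries overlapped. Without DMSO replicate 2 or 3 or 6 h replicate 2 or 3, Eno1 no longer passed for 6 h against DMSO (adjusted p up to 0.062). Leaving out DMSO replicate 2 or 3 or 24 h replicate 1 or 2 ended the Eno1 call of 24 h against DMSO (adjusted p up to 0.127). Tpi1, triose phosphate isomerase, fell from 260 ± 10.9 to 233 ± 7.55 CPM at 6 h (log2 fold change -0.16, SE 0.05, adjusted p = 0.0457). For Tpi1, the call of 6 h against DMSO was lost without DMSO replicate 2 or 3 or 6 h replicate 1, 2 or 3 (adjusted p up to 0.215), and likewise in a fit of the compared libraries alone. Pkm, pyruvate kinase, rose from 2601 ± 100 to 2867 ± 121 CPM at 6 h and lay just under the threshold before rounding (log2 fold change 0.14, SE 0.04, adjusted p = 0.05). Without DMSO replicate 1 or 2 or 6 h replicate 1 or 3, Pkm no longer passed for 6 h against DMSO (adjusted p up to 0.181), and likewise in a fit of the compared libraries alone.

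All 3 pyruvate and lactate genes of the set fell at 6 h, and Ldha rose at 24 h. Slc16a1, the other lactate carrier gene named above and not of the set, did not pass at 6 h (log2 fold change -0.10, adjusted p = 0.324). Ldha, which makes lactate from pyruvate, stood at 669.8, 678 and 702 CPM in the 3 DMSO libraries, at 613, 591 and 586 after 6 h of riociguat, at 689, 677 and 668 after 12 h and at 775, 804 and 795 after 24 h. The 6 h libraries were the lowest of all and the 24 h libraries the highest, and no library of either group overlapped another group. Ldha fell at 6 h (log2 fold change -0.20, SE 0.04, adjusted p = 0.00232), did not pass at 12 h (log2 fold change -0.01, 95% interval -0.09 to 0.07, adjusted p = 0.928) and rose at 24 h (log2 fold change 0.21, SE 0.04, adjusted p = 0.000874). Between exposure times the log2 differences were 0.19 (SE 0.04, adjusted p = 0.00516) from 6 h to 12 h, 0.22 (SE 0.04, adjusted p = 0.00177) from 12 h to 24 h and 0.41 (SE 0.04, adjusted p = 7.53e-07) from 6 h to 24 h. Every one of these 5 calls was kept under all alternatives tried. At 24 h the summed hepatocyte markers were lower (632 to 850 CPM per library, against 1241 to 1293 in DMSO). Summed endothelial markers were lower as well (786 to 830, against 983 to 1090), though Stab2 and Clec4g among them had higher means than in DMSO. The part of these markers in the rise was not tested.

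Slc16a3, a carrier that exports lactate, stood at 29.2, 29.5 and 29.2 CPM in the 3 DMSO libraries, at 25.3, 22.6 and 22.1 after 6 h of riociguat, at 29.9, 29.5 and 25.7 after 12 h and at 27.1, 25.04 and 23.99 after 24 h. The 6 h libraries all lay below DMSO, and 12 h replicate 3 lay close to them. It fell at 6 h (log2 fold change -0.34, SE 0.08, adjusted p = 0.0124) and was higher at 12 h than at 6 h (log2 fold change 0.29, SE 0.08, adjusted p = 0.0401). Leaving out 6 h replicate 2 or 3 ended the Slc16a3 call of 6 h against DMSO (adjusted p up to 0.069). For Slc16a3, the call of 12 h against 6 h was lost without 6 h replicate 2 or 3 or 12 h replicate 1 or 2 (adjusted p up to 0.189), and likewise in a fit of the compared libraries alone. Pdk1, the kinase that shuts off pyruvate dehydrogenase, stood at 15.4, 14.5 and 15.9 CPM in the 3 DMSO libraries, at 11.1, 11.5 and 10.5 after 6 h of riociguat, at 13.9, 16.7 and 13.04 after 12 h and at 13.96, 16.6 and 12.7 after 24 h. All 6 h libraries were below all others. The fall at 6 h was a log2 fold change of -0.47 (SE 0.12, adjusted p = 0.0142), and the level was higher at 12 h (log2 fold change 0.41, SE 0.12, adjusted p = 0.0472) and at 24 h (log2 fold change 0.39, SE 0.12, adjusted p = 0.0338) than at 6 h. Without DMSO replicate 3 or 6 h replicate 3, Pdk1 no longer passed for 6 h against DMSO (adjusted p up to 0.0716). Leaving out 6 h replicate 1, 2 or 3 or 12 h replicate 1 or 2 ended the Pdk1 call of 12 h against 6 h (adjusted p up to 0.265). For Pdk1, the call of 24 h against 6 h was lost without 6 h replicate 1, 2 or 3 or 24 h replicate 1 or 2 (adjusted p up to 0.152). The summed level of the 3 genes, most of it Ldha, was 728 ± 17.2 CPM in DMSO, 631 ± 16.4 at 6 h, 721 ± 13.2 at 12 h and 831 ± 15.0 at 24 h.

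**Figure D3:**
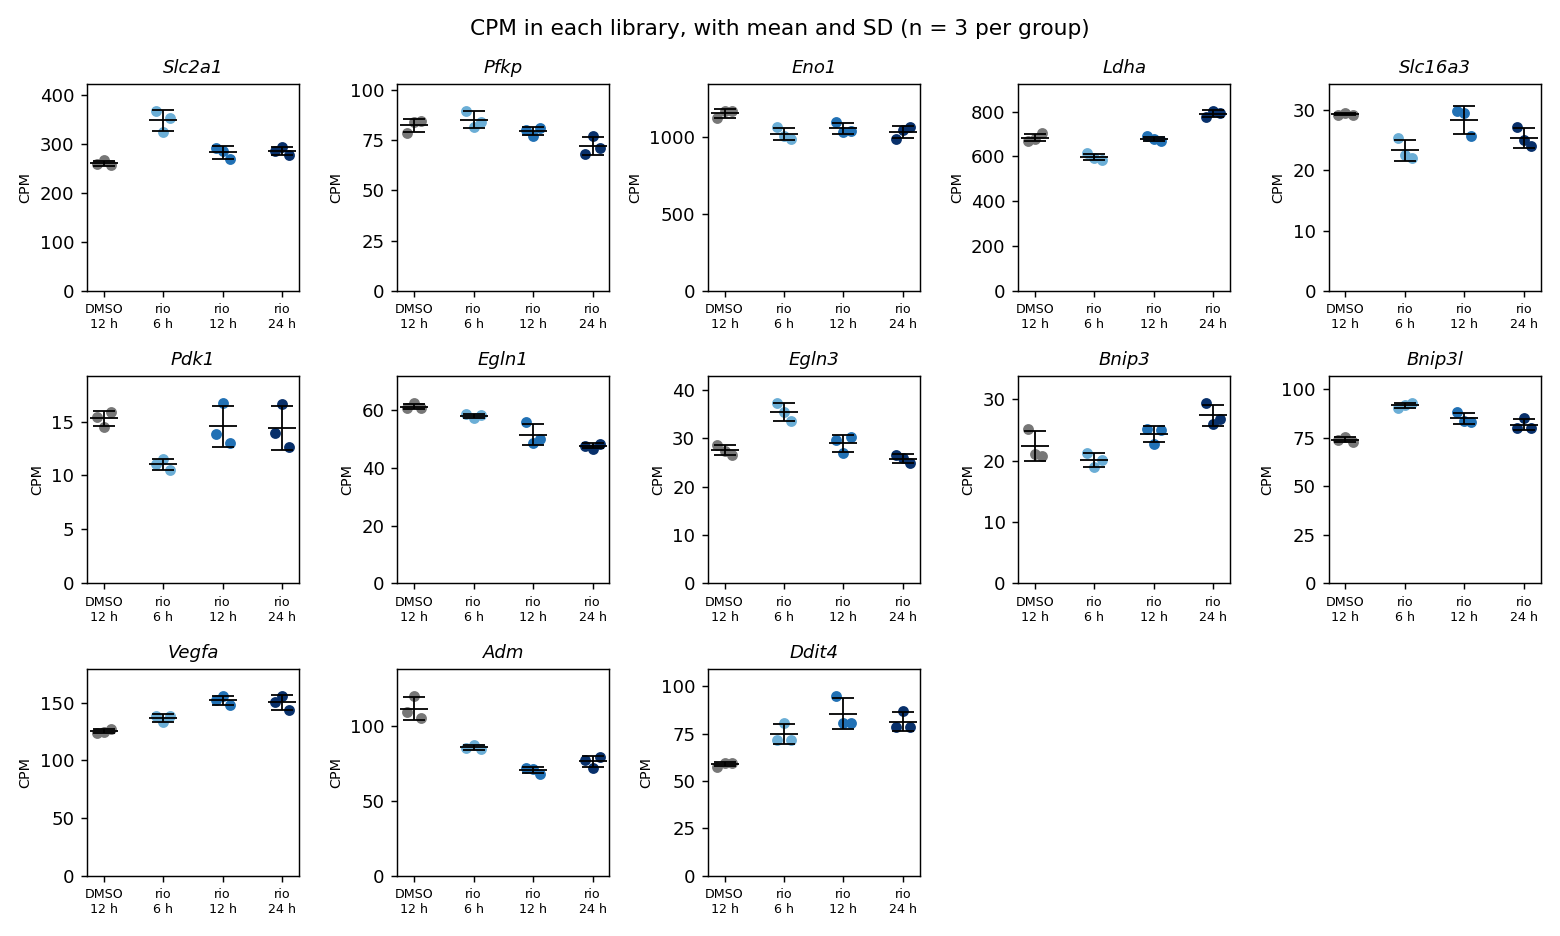
CPM of 13 genes of the set in each library (points), with mean and SD (black, n = 3), by group, on axes that start at 0. The Ldha panel shows the dip at 6 h and the rise at 24 h, Slc2a1 and Egln3 peak at 6 h, and Adm is below DMSO at every exposure time.

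Among the HIF factor and its sensors, the transcript of the factor itself did not pass while both hydroxylases of the set did. Hif1a was at 266 ± 23.9 CPM in DMSO, 254 ± 9.24 at 6 h, 256 ± 15.3 at 12 h and 282 ± 27.6 at 24 h. Each riociguat group overlapped DMSO, while the 24 h libraries lay just above the 6 h libraries (log2 fold change 0.15, SE 0.07, adjusted p = 0.177). HIF alpha is regulated mainly through the stability of the protein, which RNA does not show. Egln1, the main oxygen sensor of the pathway, stood at 60.7, 62.4 and 60.5 CPM in the 3 DMSO libraries, at 58.7, 57.1 and 58.1 after 6 h of riociguat, at 55.8, 48.7 and 49.99 after 12 h and at 47.7, 46.6 and 48.4 after 24 h. All 12 h and 24 h libraries lay below all DMSO and 6 h libraries. It fell at 12 h (log2 fold change -0.25, SE 0.06, adjusted p = 0.0131) and at 24 h (log2 fold change -0.36, SE 0.06, adjusted p = 0.000361), and was lower at 24 h than at 6 h (log2 fold change -0.28, SE 0.06, adjusted p = 0.00261). Without DMSO replicate 2 or 12 h replicate 2 or 3, Egln1 no longer passed for 12 h against DMSO (adjusted p up to 0.125). Egln3, a hydroxylase that is itself strongly induced by HIF, stood at 28.7, 27.4 and 26.6 CPM in the 3 DMSO libraries, at 37.3, 35.5 and 33.7 after 6 h of riociguat, at 29.6, 26.95 and 30.3 after 12 h and at 26.6, 25.9 and 24.8 after 24 h. The 6 h libraries were the 3 highest. It rose at 6 h (log2 fold change 0.36, SE 0.07, adjusted p = 0.00298) and was lower at 12 h (log2 fold change -0.29, SE 0.07, adjusted p = 0.0192) and 24 h (log2 fold change -0.46, SE 0.07, adjusted p = 0.000242) than at 6 h. Leaving out 6 h replicate 1 or 2 or 12 h replicate 2 ended the Egln3 call of 12 h against 6 h (adjusted p up to 0.138).

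Of the 3 HIF targets that act on mitochondria, the mitophagy receptors Bnip3 and Bnip3l changed. Bnip3 stood at 25.1, 21.2 and 20.7 CPM in the 3 DMSO libraries, at 21.3, 18.97 and 20.02 after 6 h of riociguat, at 25.1, 22.7 and 25.04 after 12 h and at 29.4, 25.9 and 26.8 after 24 h. Its 24 h libraries were the 3 highest, only just above DMSO replicate 1. It rose at 24 h against DMSO (log2 fold change 0.30, SE 0.09, adjusted p = 0.0327) and against 6 h (log2 fold change 0.45, SE 0.09, adjusted p = 0.00184). For Bnip3, the call of 24 h against DMSO was lost without DMSO replicate 2 or 3 or 24 h replicate 1 or 3 (adjusted p up to 0.134), and likewise in a fit of the compared libraries alone. Bnip3l stood at 73.9, 75.5 and 72.6 CPM in the 3 DMSO libraries, at 90.04, 91.99 and 92.7 after 6 h of riociguat, at 88.01, 83.4 and 83.2 after 12 h and at 79.9, 84.9 and 79.9 after 24 h. Every library with riociguat lay above every DMSO library. It rose at 6 h (log2 fold change 0.31, SE 0.05, adjusted p = 0.000353) and 12 h (log2 fold change 0.20, SE 0.05, adjusted p = 0.0167), and at 24 h it was lower than at 6 h (log2 fold change -0.17, SE 0.05, adjusted p = 0.0219). Without DMSO replicate 3 or 12 h replicate 1, Bnip3l no longer passed for 12 h against DMSO (adjusted p up to 0.0741). Leaving out 6 h replicate 2 or 3 or 24 h replicate 1 or 3 ended the Bnip3l call of 24 h against 6 h (adjusted p up to 0.104), and likewise in a fit of the compared libraries alone or without the count filter. At 24 h against DMSO its log2 fold change of 0.14 (SE 0.05, adjusted p = 0.0611) did not pass, though it did with RLE scaling. Higd1a, a small protein of the inner membrane, had no call and ranged from 23.0 to 32.1 CPM.

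The secreted HIF targets moved in opposite directions. Vegfa, the endothelial growth factor, stood at 124, 125 and 127 CPM in the 3 DMSO libraries, at 139, 133 and 139 after 6 h of riociguat, at 153, 156 and 148 after 12 h and at 151, 156 and 144 after 24 h. All riociguat libraries lay above all DMSO libraries. It rose at 12 h (log2 fold change 0.28, SE 0.04, adjusted p = 0.000545) and 24 h (log2 fold change 0.26, SE 0.04, adjusted p = 0.000614), and it was higher at 24 h than at 6 h (log2 fold change 0.13, SE 0.04, adjusted p = 0.049). For Vegfa, the call of 24 h against 6 h was lost without 6 h replicate 1, 2 or 3 or 24 h replicate 1 or 2 (adjusted p up to 0.155), and likewise in a fit of the compared libraries alone or without the count filter. At 6 h it was 0.13 above DMSO on the log2 scale (SE 0.04, adjusted p = 0.0877). Adm, the precursor of the vasodilator peptide adrenomedullin, stood at 109, 120 and 105 CPM in the 3 DMSO libraries, at 85.01, 87.3 and 84.2 after 6 h of riociguat, at 71.7, 70.98 and 68.1 after 12 h and at 77.2, 71.9 and 79.4 after 24 h. The DMSO libraries were the 3 highest and the groups at 12 h and 24 h the lowest. It fell at 6 h (log2 fold change -0.38, SE 0.06, adjusted p = 0.000238), 12 h (log2 fold change -0.66, SE 0.06, adjusted p = 5.14e-07) and 24 h (log2 fold change -0.55, SE 0.06, adjusted p = 3.29e-06), and it was lower at 12 h than at 6 h (log2 fold change -0.28, SE 0.06, adjusted p = 0.00483). Its change at 12 h had the largest size among all calls in the set. Car9 encodes a carbonic anhydrase that acidifies the outside of hypoxic cells and is often used as a marker of hypoxia. It stayed at 2.42 to 4.12 CPM with no call, and its 95% interval at 12 h (-0.44 to 0.65 on the log2 scale) leaves changes of either sign possible at this depth.

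Of the remaining HIF targets, Ddit4 changed at every exposure time. Ddit4, a stress-induced inhibitor of mTOR signalling, stood at 57.6, 59.3 and 59.8 CPM in the 3 DMSO libraries, at 71.7, 80.6 and 71.9 after 6 h of riociguat, at 95.1, 80.9 and 80.6 after 12 h and at 78.4, 87.04 and 78.7 after 24 h. No riociguat library overlapped a DMSO library. It rose at 6 h (log2 fold change 0.35, SE 0.07, adjusted p = 0.00377), 12 h (log2 fold change 0.54, SE 0.07, adjusted p = 6.94e-05) and 24 h (log2 fold change 0.47, SE 0.07, adjusted p = 0.000195). Ndrg1 was at 88.9 ± 2.89 CPM in DMSO and fell to 76.3 ± 2.37 CPM at 24 h (log2 fold change -0.22, SE 0.06, adjusted p = 0.0267). Without DMSO replicate 1 or 3 or 24 h replicate 1 or 3, Ndrg1 no longer passed for 24 h against DMSO (adjusted p up to 0.115). Mxi1, a Max partner that opposes Myc, was at 21.9 ± 2.95 CPM at 6 h and lower, at 16.7 ± 1.19 CPM, at 24 h (log2 fold change -0.38, SE 0.10, adjusted p = 0.0182). Leaving out 6 h replicate 1 or 24 h replicate 1 or 3 ended the Mxi1 call of 24 h against 6 h (adjusted p up to 0.0982). Kdm3a, a histone demethylase, had no call, with 95% intervals within 0.17 of 0 on the log2 scale against DMSO. Ankrd37, at 0.24 to 1.68 CPM, had no call and was too low for a firm statement.

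**Figure D4:**
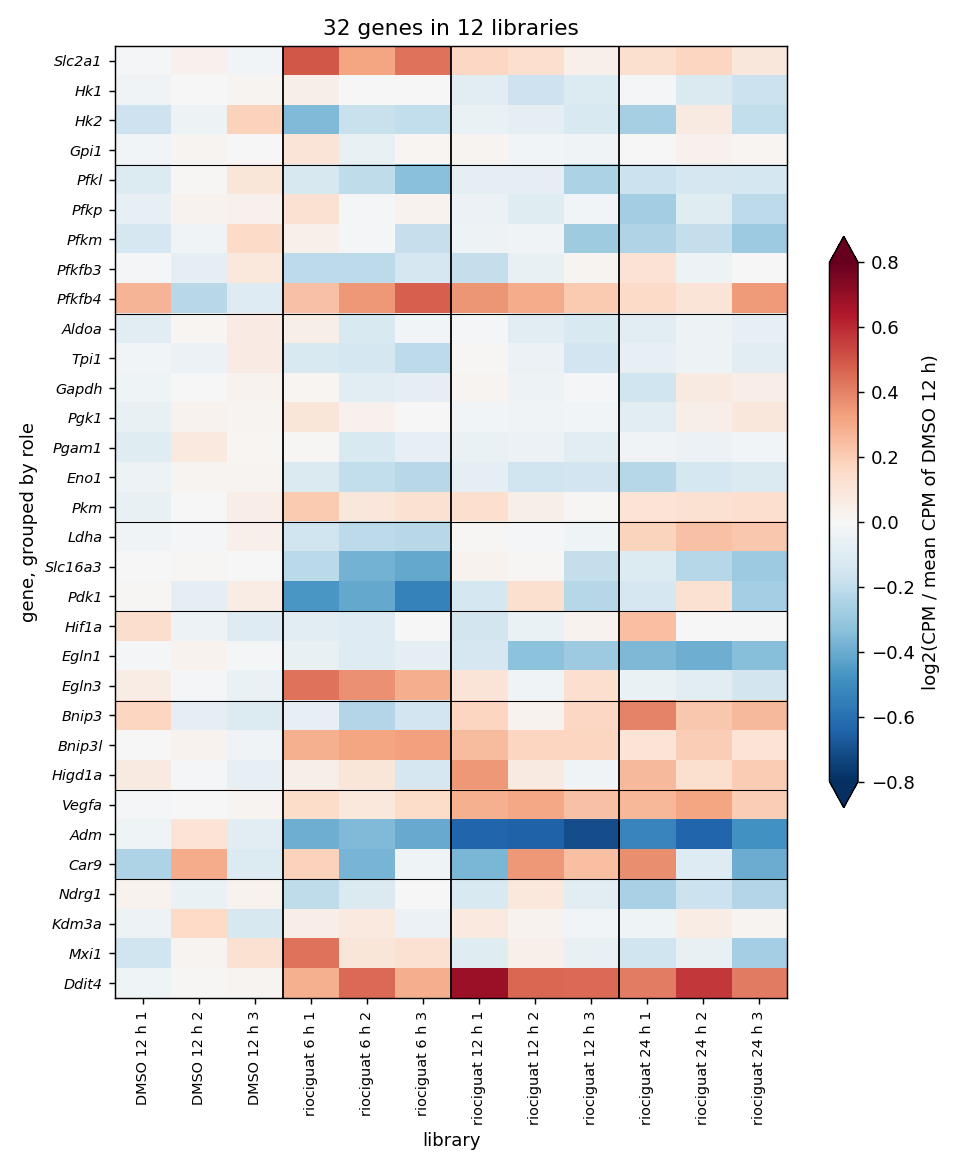
Log2 ratio of CPM to the DMSO 12 h mean for 32 genes of the set (rows, grouped by role) in all 12 libraries (columns, grouped by treatment); red is higher and blue lower. Slc2a1 and Egln3 are red and Pdk1 and Slc16a3 blue in the 6 h columns, Adm is blue and Ddit4 red in all riociguat columns, and rows such as Gpi1, Gapdh and Pgk1 stay pale.

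Apart from these 33 symbols, 97 further genes of the same pathways were examined, of which 92 were tested. Among 18 tested isoforms and regulators of glycolysis, none passed at 12 h or 6 h (1 had an unadjusted p under 0.05 in each, and DESeq2 called 0 in each). At 24 h, 3 fell and none rose, beside 7.41% and 5.94% of all genes tested. The fallen share was 16.7%, and DESeq2 called 2 genes of the list. Among the 3 was the lactate carrier gene Slc16a1 (log2 fold change -0.27, SE 0.06, adjusted p = 0.00538). The summed hepatocyte markers were lower as well, at 1241 to 1293 CPM in the DMSO libraries and 632 to 850 CPM at 24 h, and their part in the result was not tested.

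Among 12 genes that act on the fate of pyruvate, Pdk4, another kinase that shuts off pyruvate dehydrogenase, fell in all 3 comparisons with DMSO and the rest gave 1 call, a rise of the phosphatase gene Pdp1 at 24 h. The fallen share was thus 8.33% each time, beside 5.24% of all genes tested at 6 h, 3.48% at 12 h and 7.41% at 24 h. The risen share at 24 h was 8.33%, beside 5.94%. Each of these shares rests on 1 gene. Pdk4 was at 42.2 ± 2.58 CPM in DMSO, 34.96 ± 2.11 at 6 h, 27.9 ± 1.12 at 12 h and 26.3 ± 1.93 at 24 h. Its log2 fold changes were -0.27 (SE 0.08, adjusted p = 0.0294) at 6 h, -0.60 (SE 0.08, adjusted p = 5.56e-05) at 12 h and -0.68 (SE 0.08, adjusted p = 9.29e-06) at 24 h. The call at 6 h was lost without DMSO replicate 3 or 6 h replicate 1 or 3 (adjusted p up to 0.145) and in a fit of the compared libraries alone.

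The pentose phosphate pathway branches from glycolysis and supplies NADPH, and with glycogen metabolism it made up a list of 13 genes. At 6 h 4 of them rose (G6pdx, Pgd, Taldo1 and Gbe1) and none fell, while at 12 h 2 rose (G6pdx and Pgd) and at 24 h 2 rose (the same 2) and Rpia fell. The risen share was 30.8% at 6 h and 15.4% at 12 h and 24 h, beside 4.48%, 2.18% and 5.94% of all genes tested. The fallen share at 24 h was 7.69%, near the 7.41% of all genes tested, and rests on 1 gene. Pgd, the phosphogluconate dehydrogenase gene, was at 1061 ± 19.9 CPM in DMSO, 1406 ± 46.2 at 6 h, 1298 ± 28.0 at 12 h and 1155 ± 2.83 at 24 h. On the log2 scale its rise was 0.41 (SE 0.04, adjusted p = 1.5e-06) at 6 h, 0.29 (SE 0.04, adjusted p = 6.16e-05) at 12 h and 0.12 (SE 0.04, adjusted p = 0.0379) at 24 h. G6pdx, which starts the pathway, rose by 0.29 (SE 0.05, adjusted p = 0.000818) at 6 h, 0.17 (SE 0.05, adjusted p = 0.0496) at 12 h and 0.23 (SE 0.05, adjusted p = 0.00485) at 24 h on the log2 scale. The call for G6pdx at 12 h was lost without any of 5 of the 6 libraries (all but DMSO replicate 2; adjusted p up to 0.134). The call for Pgd at 24 h was lost without DMSO replicate 1 or 2 or any 24 h library (adjusted p up to 0.0899).

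In the rest of the HIF machinery (12 genes) none rose, 1 fell at 6 h and 2 fell at 12 h and at 24 h. The fallen share was 8.33% at 6 h and 16.7% at 12 h and 24 h, beside 5.24%, 3.48% and 7.41% of all genes tested, and at 6 h it rests on 1 gene. Epas1 fell at each time, from 250 ± 5.91 CPM in DMSO to 186 ± 10.5 at 6 h, 194 ± 7.26 at 12 h and 200 ± 8.56 at 24 h. Its log2 fold changes were -0.43 (SE 0.05, adjusted p = 2e-05), -0.37 (SE 0.05, adjusted p = 9.61e-05) and -0.32 (SE 0.05, adjusted p = 0.000244), and no alternative ended a call. The other was Cited2, which competes with HIF for its coactivators; it was at 94.1 ± 1.25 CPM in DMSO, 70.5 ± 3.75 at 12 h and 81.5 ± 7.73 at 24 h. Arnt, the shared partner of the HIF alpha subunits, and Egln2 had no call.

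Among 37 further HIF targets tested, 4 rose and 3 fell at 12 h, 2 rose and 3 fell at 6 h, and 6 rose and 6 fell at 24 h, with median log2 fold changes of 0.02, -0.01 and 0.01. At 6 h the shares of 5.41% risen and 8.11% fallen lie near those of all genes (4.48% and 5.24%). At 12 h they were 10.8% and 8.11%, beside 2.18% and 3.48%, and at 24 h 16.2% in each direction, beside 5.94% and 7.41%. Stc1, stanniocalcin, was low, at 3.58 ± 0.34 CPM in DMSO and 10.9 ± 1.28 CPM at 24 h (log2 fold change 1.60, SE 0.22, adjusted p = 6.26e-05). At 12 h it rose to 6.09 ± 1.26 CPM (log2 fold change 0.77, SE 0.22, adjusted p = 0.0487), which was not called without DMSO replicate 2 or 3 or 12 h replicate 2 or 3 (adjusted p up to 0.235). Hilpda, which coats lipid droplets, rose at 24 h (log2 fold change 0.47, SE 0.08, adjusted p = 0.000874) and 12 h (log2 fold change 0.29, SE 0.08, adjusted p = 0.0491), the latter lost without DMSO replicate 2 or 3 or 12 h replicate 1 or 2 (adjusted p up to 0.249) and in a fit of the compared libraries alone. Fam13a rose at 6 h (log2 fold change 0.62, SE 0.09, adjusted p = 0.000234), 12 h (log2 fold change 0.39, SE 0.09, adjusted p = 0.0152) and 24 h (log2 fold change 0.42, SE 0.09, adjusted p = 0.00516), and the call at 12 h was lost without DMSO replicate 2 or 3 or 12 h replicate 1 or 2 (adjusted p up to 0.0876).

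The lower HIF targets at 6 h included genes of lipid and nucleotide metabolism. Angptl4, an inhibitor of lipoprotein lipase, was at 217 ± 1.56 CPM in DMSO and 149 ± 7.04 CPM at 6 h (log2 fold change -0.55, SE 0.05, adjusted p = 9.76e-07), and Ak4, a mitochondrial adenylate kinase, at 22.4 ± 1.13 and 15.3 ± 1.11 CPM (log2 fold change -0.55, SE 0.10, adjusted p = 0.00161). At 12 h Angptl4 fell as well (log2 fold change -0.22, SE 0.05, adjusted p = 0.00943), though not when either DMSO replicate 3 or 12 h replicate 2 or 3 was removed (adjusted p up to 0.0824). At 24 h it was at 228 ± 5.39 CPM and did not pass against DMSO (adjusted p = 0.369). Errfi1, a feedback inhibitor of the EGF receptor, fell at 6 h (log2 fold change -0.28, SE 0.05, adjusted p = 0.00236), 12 h (log2 fold change -0.46, SE 0.05, adjusted p = 1.98e-05) and 24 h (log2 fold change -0.24, SE 0.05, adjusted p = 0.00559). Cxcr4, a chemokine receptor found on endothelial and immune cells, fell at 24 h from 6.96 ± 0.83 to 3.68 ± 0.51 CPM (log2 fold change -0.91, SE 0.19, adjusted p = 0.00281).

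Markers of other cell types differed between the groups in which these genes moved. The 10 endothelial markers summed to 983 to 1090 CPM in the DMSO libraries and 1212 to 1281 at 6 h. They summed to 948 to 1001 CPM at 12 h and 786 to 830 at 24 h. Stab2 and Clec4g had higher means at 24 h than in DMSO, and the other endothelial markers lower ones, Lyve1 only just. Hepatocyte markers summed to 1095 to 1227 CPM at 6 h and 1173 to 1427 at 12 h, beside the DMSO and 24 h values given above. The 8 cholangiocyte markers summed to 563 to 607 CPM in DMSO, 530 to 577 at 6 h, 676 to 771 at 12 h and 997 to 1042 at 24 h, and Spp1, which other liver cells express too, made up 732 of the mean of 1020 CPM at 24 h. The 10 markers of portal fibroblasts and mesothelium summed to 976 to 1069 CPM in DMSO and 852 to 869 at 6 h. They summed to 977 to 1018 CPM at 12 h and 903 to 928 at 24 h. Fbln2 had a mean of 384 CPM in DMSO and 252 at 6 h. Cd34 and Entpd2 had higher means at 6 h than in DMSO, and the other members of that list lower ones. Macrophage markers summed to 131 to 141 CPM in DMSO, 116 to 123 at 6 h, 131 to 152 at 12 h and 143 to 165 at 24 h. Within these sums, Lyz2 had means of 68.7 CPM in DMSO, 55.0 at 6 h, 69.8 at 12 h and 90.5 at 24 h. Adgre1, Clec4f, Timd4, Cd68 and Csf1r had lower means at 24 h than in DMSO, and Marco, Vsig4, C1qa and C1qb higher ones. Of the resident Kupffer cell markers in the macrophage list, Timd4 and Clec4f were under 1 CPM in every library. Vsig4 ranged from 0.71 to 2.40 CPM and Marco from 2.20 to 6.44 CPM. Lymphocyte markers summed to 1.73 to 5.28 CPM over all libraries. The stellate list summed to 2622 to 2699 CPM in DMSO, 2835 to 2885 at 6 h, 2821 to 2913 at 12 h and 2935 to 3165 at 24 h. Members of the stellate list went both ways. Reln had a mean of 1367 CPM in DMSO and 1665 at 24 h, and Hgf 121 and 204. Lrat, Lhx2, Hand2 and Dcn were also higher at 24 h than in DMSO. Des was lower, at 190 CPM in DMSO and 132.5 at 24 h, as was Pdgfrb, at 238 and 186. Ngfr and Colec11 were lower too. The part of all these markers in the results for glycolysis and HIF genes was not tested.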

How the data were processed

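RNA was sequenced from 4 groups of 3 libraries. The authors deposited a table of expected counts per gene, and all values are whole numbers. Per the submitters' processing notes, FastQC, fastp, Salmon and DESeq2 were used with build GRCm38; roles, versions and strand handling are not given in the sources used here. Salmon shares reads among similar transcripts, so near-identical genes are uncertain.

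Counts entered edgeR 4.0.16 in R 4.3.3 (filterByExpr, TMM, quasi-likelihood test, two-sided, 1 fit over 12 libraries with group as the only term, Benjamini-Hochberg adjustment within a comparison). SE was taken from the F statistic, and 95% intervals use 16.8 degrees of freedom. Positions and exon lengths come from GENCODE vM21 and promoters from RefSeq. Members, lists and tests were chosen with earlier results of these data known. Members called at 12 h against DMSO or in at least 2 comparisons are given by library; of other pathway genes, the 3 risen and 3 fallen with the largest change per comparison with DMSO at 5 CPM or more, and others were chosen after their values were seen; some genes named by this rule are not reported here. On counts simulated for 12 h against DMSO (15692 genes), 54.2% of 0.5 and 80.9% of 1 log2 changes were recovered. Alternatives were RLE factors, no count filter, DESeq2 1.42.0, a replicate block, only the compared libraries, and each library left out.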

Additional observations from a re-analysis of the deposited data

Results flagged for a closer look

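Ldha is listed because its change against DMSO turned with exposure time and the difference itself passed the test. It was 597 ± 14.5 CPM at 6 h and 791 ± 15.1 CPM at 24 h, beside 683 ± 16.8 CPM in DMSO (SD, n = 3). Against DMSO it fell at 6 h (log2 fold change -0.20) and rose at 24 h (0.21). At 12 h, the only exposure time that matches DMSO, it did not pass (log2 fold change -0.01, edgeR adjusted p = 0.928). The difference between 24 h and 6 h was 0.41 on the log2 scale (edgeR adjusted p = 7.53e-07), and every 24 h library lay above every 6 h library.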

How the results depend on the processing

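Of 44 called results for members, 23 kept their direction and their side of the threshold under every alternative, 21 were lost when some library was left out, and 0 changed direction; 14 of the 160 results that were not called passed under at least 1 alternative. Counts of called members with 1 library left out ranged from 4 to 6 at 12 h against DMSO (5 with all libraries), 6 to 13 at 6 h (12; lowest without 6 h replicate 3), 5 to 11 at 24 h (9; lowest without 24 h replicate 1), 3 to 6 from 6 h to 12 h (6; lowest without 6 h replicate 2 or 12 h replicate 2), 1 from 12 h to 24 h (1), and 6 to 9 from 6 h to 24 h (11; lowest without 24 h replicate 1). Over all genes, in the same order, they ranged from 510 to 1262 (907), 955 to 1852 (1559), 1395 to 2566 (2141), 596 to 836 (976), 318 to 432 (494) and 1772 to 2117 (2451). Without the count filter, 838 genes were called from 12 h to 24 h. The cause was not tested.

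No clear pairing by replicate number was seen, though with 3 libraries per group this check cannot exclude one. Deviations of same-numbered libraries correlated between -0.14 and 0.08 in 18 pairs, none above 0.1. Of the 12 libraries, 8 correlated best with their own number, a hint from the data and not the design. With a replicate block, in the same order, 5, 9, 9, 6, 1 and 10 members and 793, 1348, 1944, 842, 443 and 2208 genes were called. The block ended the calls of Pfkl, Tpi1 and Pkm at 6 h against DMSO and of Vegfa at 24 h against 6 h, and among other pathway genes those of Stc1, Hilpda and G6pdx at 12 h and Pgd at 24 h against DMSO. Depth limits statements on Ankrd37 (3 to 37 counts per library), Car9 (46 to 98) and the other Aldoa identifier (1 to 28). When a library is left out, the remaining ones are assumed to vary like the other groups.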
